A study of Mus musculus with 6 samples.

Results

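Adventitial fibroblasts are the resident connective tissue cells of the outer coat of an artery, and the 10 genes described here (Pdgfra, Pi16, Dpt, Clec3b, Cd248, Smoc2, Gpc3, Serpinf1, Dpep1 and Penk) are commonly used to mark them. The genes were taken as a list by symbol, without a cut on any measured value but with earlier results of these data known. They were read from every probe set that the platform annotation assigned to 1 of them alone. This gave 15 probe sets of 22626, with all 10 genes present among 12393 named genes. Aortic RNA of C57BL/6J mice, an inbred strain prone to diet-induced obesity, was hybridised to 6 Affymetrix mouse arrays, 3 for mice on a high fat diet and 3 for mice kept on regular chow. A pool of RNA from 3 aortas went on each array, and from these aortas adventitia and periaortic fat had been removed, so that the levels below are those of these transcripts in what was left after dissection. The pools were described as independent, and n = 3 pools per diet throughout. The high fat diet was given for 16 to 18 weeks, and in its replicates 2 and 3 it was started when the mice were 10 weeks old. Chow replicates 2 and 3 came from animals of 26 to 28 weeks. High fat replicate 1 was labelled with an age of 16 to 20 weeks and with no sex, chow replicate 1 with no age, and the other 5 pools were labelled male.

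In the artery wall the adventitia surrounds the smooth muscle of the media, and its fibroblasts make collagen and other matrix, take up signals from platelet-derived growth factor (PDGF) and accumulate in vascular injury. Single-cell work in mouse tissues has described Pi16 and Dpt as general marks of fibroblasts beside vessels and ducts, and several of the genes are also made by the stromal progenitor cells of adipose tissue. Contractile smooth muscle cells form the bulk of a stripped aorta.

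The promoter windows of 5 of the genes are shown, chosen from the 6 genes with a window in the table used because their levels over the arrays were alike, Pdgfra, Serpinf1 and Gpc3 in one set and Dpt and Dpep1 in another, as described further on. Smoc2, which was also close to Pdgfra, and Cd248, which was also close to Dpt, are not among those 6. Each window runs from 250 bases before to 50 bases after the gene start in RefSeq (build GRCm38.p6), 5′ to 3′ on the gene's strand. The windows lie at chr5:75152001-75152300 on the plus strand for Pdgfra, chr11:75422574-75422873 on the minus strand for Serpinf1, chrX:52613925-52614224 on the minus strand for Gpc3, chr1:164796413-164796712 on the plus strand for Dpt and chr8:123185985-123186284 on the plus strand for Dpep1. Capitals mark matches, on either strand, to the GC box letters GGGCGG, the TATA box letters TATAAA, the E-box letters CAGCTG or the AP-1 letters TGANTCA.
Pdgfra: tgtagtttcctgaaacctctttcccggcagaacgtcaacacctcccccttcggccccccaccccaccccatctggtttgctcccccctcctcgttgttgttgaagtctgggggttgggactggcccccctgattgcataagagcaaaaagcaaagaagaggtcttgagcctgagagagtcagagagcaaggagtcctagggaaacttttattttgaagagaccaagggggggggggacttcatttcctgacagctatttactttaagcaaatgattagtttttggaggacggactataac
Serpinf1: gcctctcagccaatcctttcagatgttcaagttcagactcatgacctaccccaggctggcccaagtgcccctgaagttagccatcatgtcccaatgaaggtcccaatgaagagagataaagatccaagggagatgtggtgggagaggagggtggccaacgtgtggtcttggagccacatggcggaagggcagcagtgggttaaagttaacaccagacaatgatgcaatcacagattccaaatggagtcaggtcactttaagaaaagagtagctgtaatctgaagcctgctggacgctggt
Gpc3: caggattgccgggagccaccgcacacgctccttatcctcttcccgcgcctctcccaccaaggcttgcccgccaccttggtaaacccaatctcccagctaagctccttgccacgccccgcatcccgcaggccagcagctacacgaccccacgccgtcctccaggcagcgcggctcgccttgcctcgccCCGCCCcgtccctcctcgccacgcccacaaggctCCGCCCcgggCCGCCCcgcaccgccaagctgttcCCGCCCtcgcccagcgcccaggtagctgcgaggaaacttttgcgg
Dpt: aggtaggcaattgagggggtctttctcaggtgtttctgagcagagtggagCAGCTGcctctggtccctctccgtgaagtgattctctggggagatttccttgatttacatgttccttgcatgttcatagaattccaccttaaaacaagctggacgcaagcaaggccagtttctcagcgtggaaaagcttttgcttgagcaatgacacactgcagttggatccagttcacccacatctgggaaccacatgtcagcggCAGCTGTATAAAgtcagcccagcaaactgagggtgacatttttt
Dpep1: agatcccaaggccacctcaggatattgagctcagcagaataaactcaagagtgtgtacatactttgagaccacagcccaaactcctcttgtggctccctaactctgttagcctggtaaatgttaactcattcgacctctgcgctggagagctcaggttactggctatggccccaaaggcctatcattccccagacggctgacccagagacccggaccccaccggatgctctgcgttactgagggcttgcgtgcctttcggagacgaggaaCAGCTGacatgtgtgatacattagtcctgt
Windows for 6 of the 10 genes were matched by symbol, the sixth being that of Pi16. The E-box letters were found in Dpt (2 matches), Dpep1 (1 match) and Pi16 (1 match), and in 16.3% of all 32851 windows of this length. GC box letters were found 4 times in the Gpc3 window, whose GC content was 70.7%, and were found in 35.7% of all windows. The TATA box letters stood in Dpt, next to the second E-box match, and in 13.6% of all windows. In Dpt they began 12 bases after the gene start, not before it. The E-box letters of Dpep1 and Pi16 also lay after the gene start, by 20 and 23 bases. No window of the 6 held the AP-1 letters, which were found in 7.81% of all windows. The windows of Pdgfra and Serpinf1, the pair most alike over the arrays, held none of these letters.

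Values are linear MAS5 signals, which combine the probes of a probe set into 1 number, as deposited. The trimmed mean of each array was 150.05, and median signals lay between 58.4 and 66.6. The dissected tissue carried its defining smooth muscle transcripts: Myh11, the smooth muscle myosin heavy chain, lay between 3211.5 and 3920 on the 6 arrays. The ratio of 3′ to 5′ control signal was 0.89 to 1.38 for Gapdh and 1.27 to 1.94 for actin. Detection calls were not used here, and precision is limited by there being 6 arrays.

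High fat diet and chow did not differ detectably in any of the 10 adventitial fibroblast markers. With 1 probe set per gene, that of highest mean, 5 genes had higher and 5 lower means on high fat diet, and the log2 fold changes lay between -0.28 (Serpinf1) and 0.13 (Dpt), with a median of -0.01. Over all tested probe sets the median was -0.01 as well, with 48.2% higher. Of 14 member probe sets in the fit, 0 reached an adjusted p of 0.05 and 0 had an unadjusted p under 0.05 in limma, where 0.0737% of the 13575 probe sets tested passed the former and 7.03% the latter. The adjusted p-values of the 14 lay between 0.776 and 0.995. The diets were fully separated, with no overlap between their arrays, for 1 of the 10 genes, Gpc3, against 12.3% of all probe sets tested. The median absolute log2 fold change was 0.09 for the 10 genes, by the probe set of highest mean, and 0.15 for all probe sets tested. For the 4 other tested probe sets of these genes it was 0.19. Signal levels were not matched in this comparison. In bulk RNA, fewer cells of a type and less RNA per cell cannot be told apart.

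**Figure D1:**
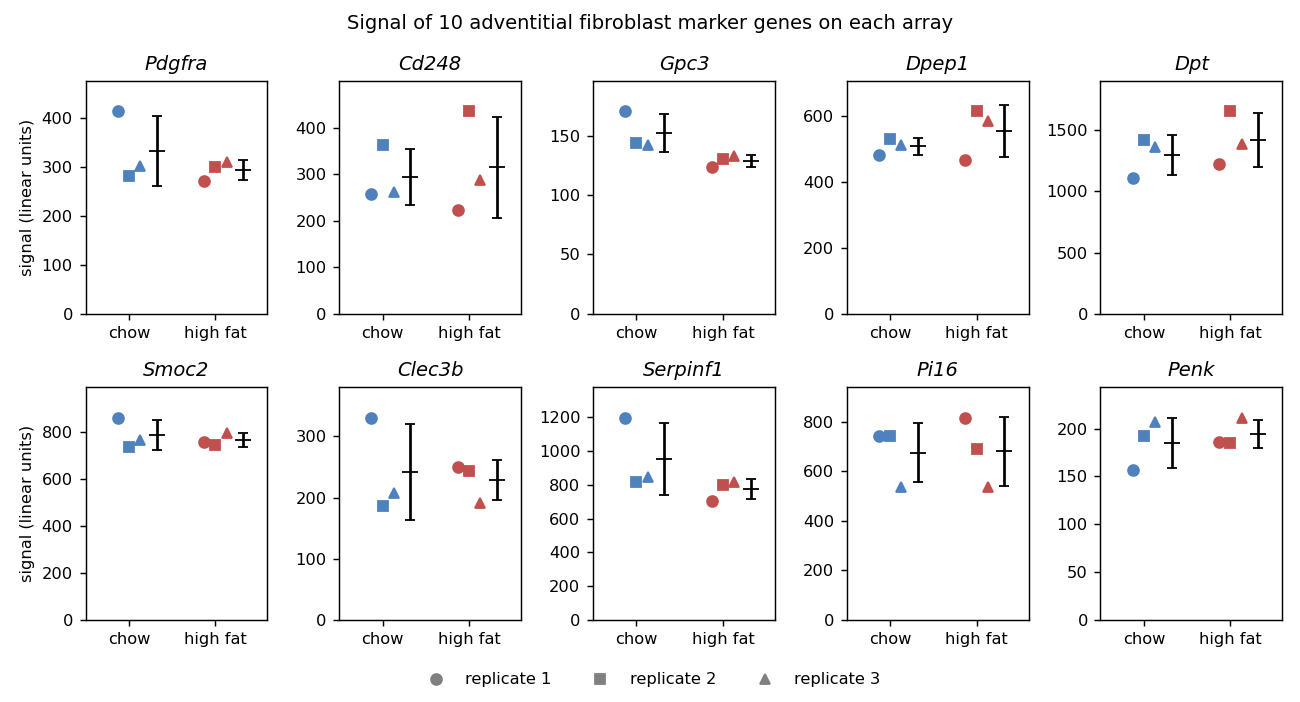
Signal of each of the 10 genes (linear units, vertical axis from 0) on each array, chow in blue and high fat in red, with a marker shape for each replicate and, beside the points, the mean and SD of the 3 arrays. The diets overlap for each gene but Gpc3, whose chow signals of 141.9 to 170.6 lie above its high fat signals of 123.3 to 133.1.

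The intervals bound how large a difference these pools could hide. With the probe set of highest mean of each gene, the 95% intervals of the log2 fold change (limma) reached at lowest -0.64, for Serpinf1, and at highest 0.58, for Cd248. As folds these bounds are 0.64 and 1.5 of the chow level. Lower probe sets of the same genes left wider limits, down to a log2 fold change of -1.08 (fold 0.47) for Serpinf1 and -0.85 (fold 0.55) for Smoc2. The narrowest interval belonged to Smoc2, from -0.32 to 0.24. Both p-values and intervals rest on the spread among pools rather than single animals, and fold changes are on the scale of log2(signal + 6), which understates the change of low signals.

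**Figure D2:**
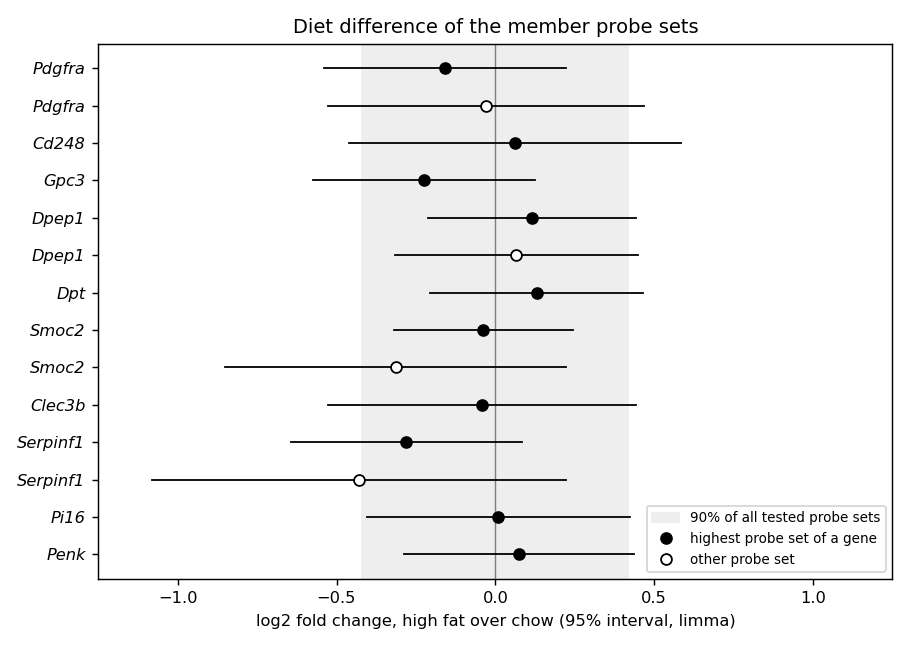
Log2 fold change of high fat over chow for the 14 tested probe sets of the 10 genes (points) with 95% intervals (lines). Filled points are the probe set of highest mean of a gene, open points its other probe set, and the grey band reaches 0.42 on either side of 0, the size below which 90% of all tested probe sets lay. Each interval includes 0.

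Among the cell surface markers, Pdgfra, the alpha receptor for PDGF and a general mark of fibroblasts, had signals of 414, 281.8 and 301.5 in chow replicates 1, 2 and 3 and of 271.1, 299.4 and 310.5 in high fat replicates 1, 2 and 3 (probe set 1421917_at). Chow replicate 1 stood above the other 5 arrays, which lay between 271.1 and 310.5. Mean signal was 332 ± 71.3 on chow and 294 ± 20.3 on the high fat diet (SD, n = 3 pools), for a log2 fold change of -0.16 with an interval from -0.54 to 0.22, and the log2 fold change lay between -0.26 and 0.01 when each array was left out, the latter without chow replicate 1. The other Pdgfra probe set (1421916_at), with signals of 56.5 to 100.9, was likewise highest in chow replicate 1, and its log2 fold change was -0.03, with values between -0.21 and 0.17 when each array was left out, the latter without chow replicate 1.

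Cd248, or endosialin, a transmembrane glycoprotein of stromal fibroblasts and pericytes, had signals of 256.4, 362.3 and 262.5 in chow replicates 1 to 3 and of 223.4, 434.7 and 286.3 in high fat replicates 1 to 3 (1417439_at). The highest and the lowest array were both from the high fat group, and replicate 2 was the highest of each diet. The spread over the 6 arrays, 1.95-fold from lowest to highest, was the widest among the 10 genes, and the log2 fold change was 0.06 with an interval from -0.46 to 0.58. Leaving out 1 array at a time gave values from -0.19, with high fat replicate 2 omitted, to 0.28, with high fat replicate 1 omitted.

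Gpc3, a glypican that carries heparan sulfate chains on a lipid anchor, had signals of 170.6, 143.9 and 141.9 in chow replicates 1 to 3 and of 123.3, 130.4 and 133.1 in high fat replicates 1 to 3 (1450990_at). The chow arrays all lay above the high fat arrays, with a gap between 133.1 and 141.9. The means were 152 ± 16.0 and 129 ± 5.06, a log2 fold change of -0.22 with an interval from -0.58 to 0.13 (adjusted p = 0.807, limma). Leaving out each array in turn gave log2 fold changes between -0.27 and -0.14. Their direction was fixed in advance by the lack of overlap.

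Dpep1, a lipid-anchored dipeptidase that cleaves the glutathione product cysteinylglycine, had signals of 480.9, 530.3 and 511.2 on chow and of 464.8, 613.4 and 583.1 on high fat diet in replicates 1 to 3 (1435943_at). The chow arrays lay inside the range of the high fat arrays, of which replicate 1 was the lowest of all 6. The log2 fold change was 0.12 with an interval from -0.21 to 0.44, and with 1 array left out it ranged from 0.04 (high fat replicate 2 omitted) to 0.24 (high fat replicate 1 omitted). The other Dpep1 probe set (1419674_a_at), between 272.2 and 409.8, had high fat replicate 2 highest and high fat replicate 1 lowest too, and a log2 fold change of 0.07.

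Among the matrix proteins, Dpt, or dermatopontin, a small protein that binds decorin and collagen fibrils, had signals of 1107.7, 1419.2 and 1361.7 in chow replicates 1 to 3 and of 1221.3, 1654.8 and 1389.8 in high fat replicates 1 to 3 (1418511_at). Chow replicate 1 was the lowest array and high fat replicate 2 the highest, with the others between and mixed by diet. Mean signal was 1296 ± 166 on chow and 1422 ± 219 on the high fat diet, the largest positive log2 fold change of the 10 at 0.13, with an interval from -0.20 to 0.46. That value was 0.02 when either high fat replicate 2 or chow replicate 1 was omitted, and was 0.23 when high fat replicate 1 was.

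Smoc2, a calcium-binding matrix protein related to SPARC, had signals of 863.4, 738.6 and 765.9 on chow and of 759.8, 744.1 and 798.8 on high fat diet (1415935_at). It was the steadiest of the 10 genes, at 1.17-fold from the lowest to the highest array, and its log2 fold change was -0.04. The second Smoc2 probe set (1431362_a_at) read 194.6 in chow replicate 1 and 93 to 117.7 on the other 5 arrays. Its log2 fold change was -0.31 with an interval from -0.85 to 0.22, and it was -0.03 without chow replicate 1 and -0.53 without chow replicate 2 (unadjusted p = 0.0558, adjusted p = 0.911, limma).

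Clec3b, or tetranectin, a secreted lectin-like protein that binds plasminogen, had signals of 331, 185.8 and 207.4 on chow and of 250, 244.2 and 191.6 on high fat diet (1449466_at). The chow group held both the highest and the lowest array. The means, 241 ± 78.3 and 229 ± 32.2, gave a log2 fold change of -0.04 with an interval from -0.53 to 0.44, with values between -0.20 and 0.20 when each array was left out, the latter without chow replicate 1.

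Among the secreted factors and enzyme inhibitors, Serpinf1, the pigment epithelium-derived factor, a serpin without protease inhibitor activity that restrains vessel growth, had signals of 1198.5, 815 and 847.5 on chow and of 705.3, 800.2 and 815.6 on high fat diet (1416168_at). The diets met at 815 against 815.6, and chow replicate 1 stood far above the rest. The means were 954 ± 213 and 774 ± 59.7, a log2 fold change of -0.28 ± 0.16 (SE), the lowest of the 10 genes, with an interval from -0.64 to 0.08 (adjusted p = 0.776, limma). It was -0.11 without chow replicate 1 and between -0.38 and -0.22 without each of the other arrays. The second probe set (1453724_a_at) read 523.3 in chow replicate 1 and 197.2 to 325.7 elsewhere, with a log2 fold change of -0.43 and the widest interval of the 14, from -1.08 to 0.22. It was -0.09 without chow replicate 1 and -0.78 without chow replicate 3, where the interval ran from -1.31 to -0.24 (unadjusted p = 0.00889, adjusted p = 0.471, limma).

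Pi16, a CAP-family peptidase inhibitor named as a mark of adventitial fibroblasts, had signals of 744.4, 741.4 and 537.4 on chow and of 817.1, 688.3 and 537.6 on high fat diet (1453839_a_at). Replicate 3 was the lowest of each diet, the means were 674 ± 119 and 681 ± 140, and the log2 fold change was 0.01 with an interval from -0.40 to 0.42. The other Pi16 probe set (1422026_at), at 9.6 to 33.7, lay below the filter at a signal of 40.7 and was the member probe set that was not tested. In the fit without a filter its log2 fold change was -0.35 with an interval from -1.21 to 0.52.

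Penk, which encodes proenkephalin, the precursor of opioid peptides that some fibroblasts also express, had signals of 156.5, 192.5 and 207.4 on chow and of 186.5, 185.4 and 211.7 on high fat diet (1427038_at). Chow replicate 1 was the lowest array, and the other 5 overlapped. The log2 fold change was 0.07 with an interval from -0.29 to 0.44.

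The 10 genes did not vary as a block over the arrays. Chow replicate 1 was the highest array for 5 of them, Pdgfra, Serpinf1, Gpc3, Smoc2 and Clec3b, and the lowest for 2, Dpt and Penk. High fat replicate 1 was the lowest array for 5, Pdgfra, Serpinf1, Gpc3, Cd248 and Dpep1. High fat replicate 2 was the highest for Dpt, Cd248 and Dpep1. The deviation of chow replicate 1 from the mean of the 6 arrays was 0.51 for Clec3b, 0.49 for Serpinf1 and 0.41 for Pdgfra on the log2 scale, against -0.28 for Dpt and -0.26 for Penk. Averaged over the 10 genes the deviations ran from -0.10 in high fat replicate 1 to 0.11 in chow replicate 1. The Gapdh ratio of 3′ to 5′ signal was lowest in chow replicate 1 and highest in chow replicate 2, and its part in these deviations was not tested.

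**Figure D3:**
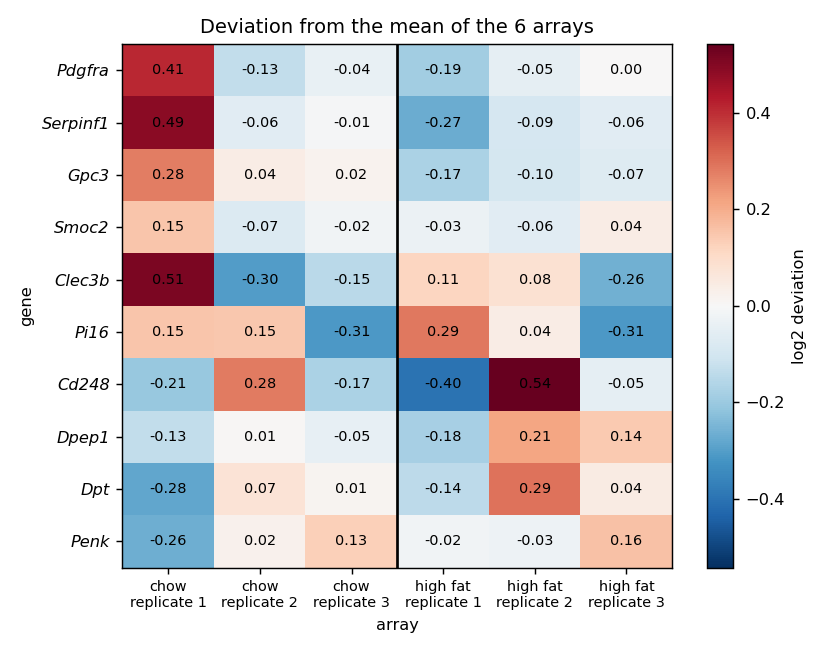
Log2 deviation of each of the 10 genes from its mean over the 6 arrays (colour and printed value, red above and blue below the mean), with arrays in columns and genes in rows. In chow replicate 1 the upper 6 genes are above their means and the lower 4 below, between 0.51 for Clec3b and -0.28 for Dpt.

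Over the 6 arrays, which share the scaling and the pools, the log2 signals of the 45 gene pairs had a median Pearson correlation of -0.10, with 19 pairs above 0 and 26 below, as a description. Over the 5 arrays without chow replicate 1 the median was 0.11, so its sign rests on that array. Pdgfra and Serpinf1 were most alike, at 0.97, or 0.76 without that array. Gpc3 and Serpinf1 stood at 0.96, or 0.84 without it. Smoc2 stood at 0.92 with Pdgfra and at 0.84 with Serpinf1, but at 0.56 and 0.11 without it. Pdgfra and Gpc3 stood at 0.87 but at 0.31 without it, and Pdgfra and Clec3b went from 0.71 to -0.37. Dpt and Dpep1, at 0.87 and 0.89, and Dpt and Cd248, at 0.85 and 0.94, were about as alike without chow replicate 1 as with it. Clec3b and Penk were least alike at -0.91. The 2 probe sets of a gene correlated at 0.84 for Serpinf1, 0.81 for Smoc2, 0.70 for Pdgfra, 0.69 for Dpep1 and 0.13 for Pi16, of which 1 was below the filter. The genes outside the list most like the mean deviation of the 10 were Pofut2, Tomm20, 1110051M20Rik, Hspb8 and Tgif1, with correlations of 0.98, 0.98, 0.97, 0.97 and 0.97 over the 6 arrays. They were the top of a ranking of all other named genes tested, against a mean that ran only from -0.10 to 0.11, and are given as a description.

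Other genes expressed by fibroblasts were divided between the directions in the same way. Genes of this and the later lists were counted as on the array if a probe set was assigned to them alone. Of 40 further fibroblast genes, 39 were on the array and 38 were tested. Of these, 19 had higher and 19 lower means with the high fat diet, the median log2 fold change was -0.01, 0 passed the adjusted threshold and 1 had an unadjusted p under 0.05 in limma. The diets did not overlap for 5 of the 38, near the 12.3% of all probe sets tested. The gene with an unadjusted p under 0.05 in limma was Cygb, cytoglobin, whose diets overlapped. Its signal was 840 ± 69.2 on high fat diet against 651 ± 131 on chow (log2 fold change 0.38, adjusted p = 0.678). Sfrp1, a secreted Wnt antagonist, had 310 ± 63.7 against 221 ± 67.2, and the chow and high fat arrays overlapped. Dcn, decorin, the collagen-binding proteoglycan, had 3484 ± 413 against 4173 ± 350, with a log2 fold change of -0.26. Cd34, a sialomucin of fibroblasts and endothelium, had 575 ± 125 against 454 ± 21.2. The adjusted p-values of Sfrp1, Dcn and Cd34 were 0.709, 0.716 and 0.745.

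The PDGF ligands (Pdgfa, Pdgfb, Pdgfc and Pdgfd) and Pdgfrb, the partner receptor of Pdgfra, had lower means with the high fat diet in 5 of 5 cases. The median log2 fold change was -0.32, and 0 passed or had an unadjusted p under 0.05 in limma. The diets overlapped for each of them. Pdgfd had 184.3, 103.4 and 129.8 on chow and 73.1, 89.2 and 121.8 on the high fat diet, for a log2 fold change of -0.52 with an interval from -1.06 to 0.02. Pdgfb, which endothelium makes, had 151 ± 7.59 on chow and 124 ± 43.1 on high fat diet. Averaged over the 5 genes, chow replicate 1 was again the highest array, at 0.33 on the log2 scale above the mean of the 6.

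Close relatives of the listed genes (other glypicans, Smoc1, dipeptidases, the thrombomodulin family to which Cd248 belongs, and the other opioid precursors) numbered 14, of which 12 were on the array and 9 were tested. Of the 9, 7 had higher means on high fat diet and 0 passed, while 1 had an unadjusted p under 0.05 in limma. This was Cd93, an endothelial relative of Cd248, with 148.3, 135 and 118.7 on chow and 169.8, 262.7 and 207.1 on high fat diet, which do not overlap (log2 fold change 0.63, interval 0.21 to 1.05, adjusted p = 0.512). Gpc1 had 98.7 ± 13.4 on chow against 128 ± 14.9 on high fat diet, and did not pass. The diets did not overlap for 3 of the 9, Cd93, Gpc1 and Smoc1, against 12.3% of all probe sets tested. Smoc1 was lower on high fat diet, with a log2 fold change of -0.29 (adjusted p = 0.752, limma).

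Markers of other cells in the wall and of tissue around it were read beside these values. Summed signals of 8 smooth muscle markers were 23353 to 28994 on chow and 24155 to 25059 on high fat diet, and 6 pericyte markers gave 4939 to 5672 against 4563 to 5539. Of 8 endothelial markers, 7 were higher on average with the high fat diet, with sums of 1347 to 1590 against 1170 to 1235. Of 10 macrophage markers, 9 had higher means, with sums of 3230 to 5274 on high fat diet against 2367 to 3142 on chow. An unadjusted p under 0.05 in limma was found for 6 of the 10, against 7.03% of all probe sets tested. The adjusted threshold was passed by 0 of the endothelial, macrophage, brown adipocyte and cardiac markers. The brown adipocyte markers, 7 of 7 with higher means, summed to 10328 to 12535 against 6717 to 8859, and Adipoq, the adipocyte hormone adiponectin, lay between 1559.4 and 2189.5 on the 6 arrays. Of 8 cardiac markers, all had higher means, with sums of 813 to 6387 against 768 to 3178. Mesothelial markers, 4 of 7 on the array, summed to 290 to 570 on high fat diet against 329 to 390 on chow. Adipocyte markers, 6 of 8 on the array, summed to 5934 to 8260 against 7355 to 7645, Schwann cell markers, 3 of 6, to 202 to 269 against 289 to 444, and lymphocyte markers, 4 of 5, to 128 to 187 against 151 to 203, chow first in each case. Of the 5 adipocyte markers tested, 4 had higher and 1 lower means on high fat diet, and 1 passed the adjusted threshold. This was Retn, resistin, the lower one, at 464 ± 70.7 on chow and 217 ± 1.31 on high fat diet. Its log2 fold change was -1.06 (adjusted p = 0.0435, limma). No marker on the array was at 0 on all 6 arrays, and the part of such cells in the signals of the fibroblast markers was not tested. For comparison, the 10 fibroblast markers summed to 5144 to 5723 on chow and 5023 to 5795 on high fat diet.

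**Figure D4:**
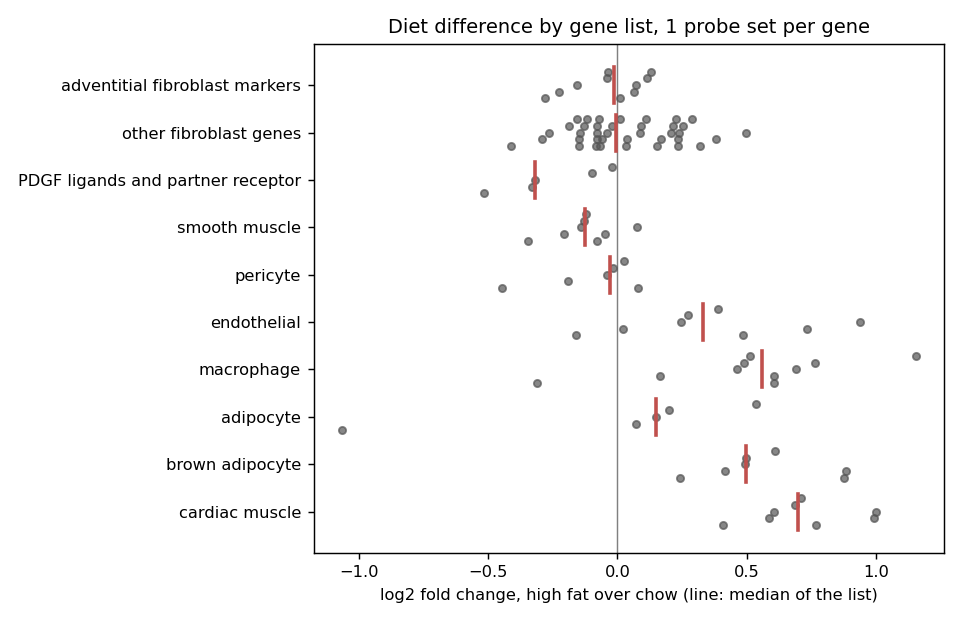
Log2 fold change of high fat over chow for each tested gene (points) by gene list, with the median of each list as a red line. The 10 adventitial fibroblast markers lie between -0.28 and 0.13, while the macrophage, brown adipocyte and cardiac lists have medians of 0.56, 0.50 and 0.70. In the macrophage, brown adipocyte and cardiac lists 0 genes passed the adjusted threshold. The diets overlap for each of the 8 cardiac genes, and 0 of these 8 had an unadjusted p under 0.05 in limma.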

How the data were processed

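The authors deposited 1 table of linear signal intensity per probe set and array, and the submitters' processing notes name MAS5. Which version, and with what settings, is not given in the sources used here. Array scaling was left as deposited. Of 22690 probe sets, 64 controls were left out. Names came from the platform annotation (20380 probe sets with 1 symbol, 691 with several, 1555 with none, and none named from several), and 20351 matched a RefSeq gene by ID with 0 symbols changed.

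Signals were transformed as log2(signal + 6), and the 13575 probe sets whose mean exceeded the 40th percentile, equal to a signal of 40.7, were tested with limma 3.58.1 in R 4.3.3 (lmFit, eBayes with a variance trend, two-sided, Benjamini-Hochberg adjustment over all probe sets tested, threshold 0.05). The steps were tested on simulated data. Each listed gene was named, by the probe set of highest mean with its other probe sets given. Among the further lists the 4 (fibroblast) or 2 genes of smallest p were named, and the 5 genes most correlated with the mean deviation of the markers. Myh11, Adipoq, Retn and Smoc1 were named after their values had been seen. The members and lists were chosen with earlier results of these data known. The alternatives were other pseudocounts, filters, normalizations, variance models, weighted arrays, replicate number as a block and each array left out. Tables were made with Python 3.11.15.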

Additional observations from a re-analysis of the deposited data

How the results depend on the processing

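No probe set of the 10 genes passed the adjusted threshold in any of the 17 other settings, and the lowest adjusted p among 237 values was 0.471. Of these values, 211 kept their direction and 26 turned, over 9 of the 14 tested probe sets. The count over all tested probe sets, 10, became 6 without a filter, 5 when the variance trend was dropped, 5 with the replicate number as a block, and 5 to 16 when each array was left out. The block changed no call of the 10 genes, and same-numbered arrays of the diets had deviations correlated at 0.03, 0.17 and -0.11, so that the numbers were not taken as pairs. The genes whose diets do not overlap, 1 on all arrays, numbered 1 to 2 when each array was left out and 2 with the arrays numbered 2 and 3 alone, an alternative chosen after seeing the data because the labels of both arrays numbered 1 leave the age unclear. Over all tested probe sets the share without overlap, 12.3% on all arrays, was 18.9% to 27.1% and 36.7% in these settings, so the members' counts stayed near or below it.

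Directions that turned were those of uncalled differences, given as log2 fold changes. They were not all small. The lower Serpinf1 probe set, which turned, had -0.43 on all arrays, the largest in size among the tested probe sets of these genes. With equal medians, Pi16 had -0.034. With array weights, Cd248 had -0.063, Clec3b 0.075 and the lower Pdgfra probe set 0.034. With the arrays numbered 2 and 3 alone, Pdgfra had 0.064 and 0.18, Pi16 -0.053, Clec3b 0.14, Smoc2 0.035, the lower Serpinf1 probe set 0.038 and Penk -0.012. When each array was left out, the ranges were -0.26 to 0.0083 and -0.21 to 0.17 for the Pdgfra probe sets, -0.15 to 0.17 for Pi16, -0.20 to 0.20 for Clec3b, -0.19 to 0.28 for Cd248, -0.083 to 0.028 for Smoc2, -0.082 to 0.21 for the lower Dpep1 probe set and -0.040 to 0.16 for Penk. The cause was not tested. Without detection calls, signals near the filter could not be separated from background.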
